A study of Homo sapiens with 9 samples.

Results

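The zinc-dependent histone deacetylases HDAC3 to HDAC11 are 9 genes of the 58735 in the deposited count table, found by their symbols in GENCODE 29. They are the family members that do not sit in SIN3 complexes; HDAC1 and HDAC2, which do, are given beside them. RNA was sequenced from HEK293T cells, an established line from human embryonic kidney that makes SV40 large T antigen. Control cells received a negative control siRNA, and the other cells received 1 siRNA against PHF12 or 1 siRNA against SUDS3, each at 10 nM with a lipid reagent and for 36 h, with 3 libraries in each group. PHF12 and SUDS3 are subunits of SIN3 repressor complexes, and the series asks what they do in these cells. With 1 siRNA per target, effects of the siRNA and of its target cannot be told apart. In whole-culture RNA, fewer cells of a kind and less RNA per cell cannot be told apart either.

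Histone deacetylases remove acetyl groups from lysines of histones and other proteins, and on chromatin they mostly go with repression. HDAC3 and HDAC8 are class I enzymes: HDAC3 works within the NCoR and SMRT corepressors, and HDAC8 deacetylates the cohesin subunit SMC3. HDAC4, HDAC5, HDAC7 and HDAC9 are the class IIa enzymes, which have little catalytic activity of their own, bind MEF2 transcription factors and leave the nucleus on 14-3-3 proteins once kinases phosphorylate them. HDAC6 and HDAC10 form class IIb: HDAC6 acts in the cytoplasm on tubulin, cortactin and HSP90, and HDAC10 deacetylates polyamines. HDAC11 is the sole class IV enzyme and is known as a fatty acyl hydrolase.

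Library totals ran from 37962926 to 50946148 counts, and 4.978% to 5.673% of counts were mitochondrial. Nearly all counts moved in steps of 4 (96.1% of those above 0 were multiples of 4), so a low count stands for fewer independent observations than its size. PHF12 fell to 54% of its control level in its own knockdown (log2 fold change -0.89, SE 0.06, edgeR adjusted p = 1.88e-14), and SUDS3 fell to 19.9% in its own (-2.33, SE 0.05, adjusted p = 1.82e-28). SUDS3 also fell in the PHF12 knockdown (-0.46, adjusted p = 6.83e-10), and PHF12 rose in the SUDS3 knockdown (0.30, adjusted p = 7.19e-05). Of the markers of HEK293 cells, LIN28B, NEFM, VIM and CDH2 were well counted and PAX2 lay at 0.951 to 2.32 CPM (counts scaled to 1000000 a library). The blood markers PTPRC and CD3E were at 0 in all 9 libraries, and ALB, KRT5, DCN and CDH5 had at most 12 counts in any library.

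All 9 HDAC genes passed the count filter, which is a low bar. The liver marker ALB, with at most 12 counts in any library, passed it as well. Read per length, HDAC3 was the most abundant of them in control cells and HDAC9 and HDAC10 the least. HDAC3 had 58.1 ± 2.24 CPM per kb of its principal transcript (SD, n = 3), HDAC8 16.6 ± 0.942, HDAC6 11.7 ± 0.653, HDAC5 8.37 ± 0.382 and HDAC7 5.91 ± 0.403. HDAC11 followed at 2.74 ± 0.257 and HDAC4 at 1.58 ± 0.153. HDAC10 (0.646 ± 0.333) and HDAC9 (0.539 ± 0.196) overlapped and were not ordered beyond their spread, while the libraries of every other neighbouring pair were separate. For scale, HDAC1 had 130 ± 1.22 and HDAC2 43.3 ± 1.37 CPM per kb. The place of HDAC2 depended on the length taken, as its principal transcript has 9874 bases, of which 1467 are coding. Per kb of coding length, HDAC2 had 291, HDAC1 191 and HDAC3 88.5 CPM in controls. Per kb of all annotated exons, HDAC1 had 69.7, HDAC2 27.6 and HDAC3 24.6.

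The order was the same in the PHF12 knockdown, except that HDAC9 (0.742 ± 0.0882) and HDAC10 (0.736 ± 0.0558), still overlapping, changed places. In the SUDS3 knockdown all 3 HDAC9 libraries (0.229 to 0.338 CPM per kb) lay below all 3 HDAC10 libraries (0.614 to 0.693). Parts of this order depended on the length taken. For HDAC8, HDAC8-207, its principal transcript here, has 2110 bases, while the union of all its annotated exons has 22986. For HDAC9, the principal transcript HDAC9-214 has 3210 bases, all of them coding. It includes no UTR, unlike those of the other genes, which raises the CPM per kb of HDAC9 beside theirs. With union lengths for every gene HDAC8 ranked 6 of 9 in controls in place of 2. HDAC5 (5.67 to 6.16 CPM per kb) then lay above HDAC6 (4.43 to 4.92), with separate libraries, and HDAC7 and HDAC11 ranked 4 and 5. HDAC10 (0.175 to 0.535) then lay apart from and above HDAC9 (0.0706 to 0.144) in controls, and also in the PHF12 knockdown (0.37 to 0.43 against 0.127 to 0.16). HDAC3 ranked 1 and HDAC4 ranked 7 with both lengths.

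**Figure D1:**
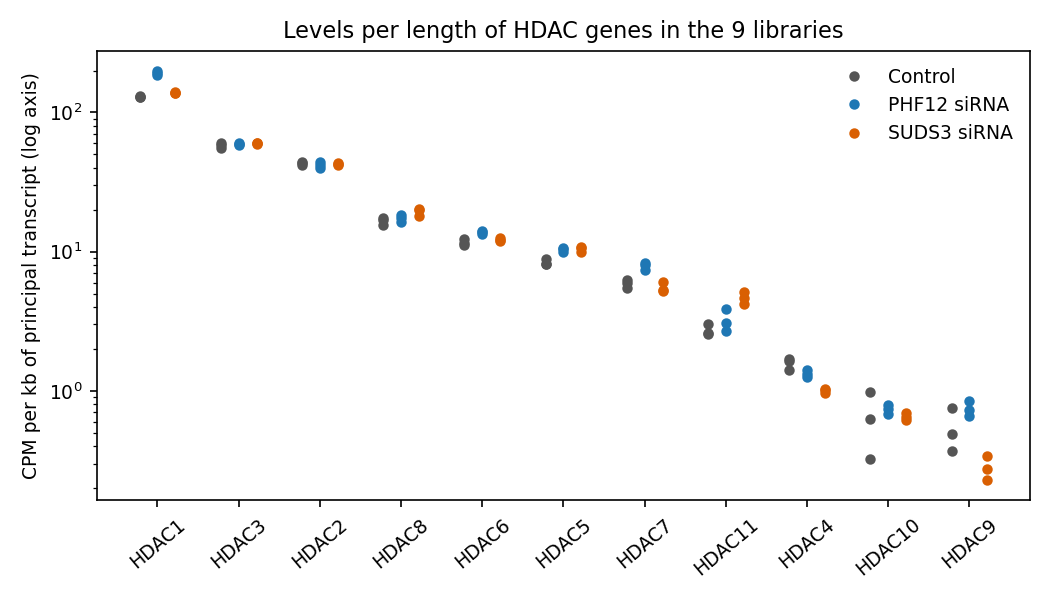
CPM per kb of principal transcript (log axis) of the 9 genes and of HDAC1 and HDAC2, with 1 point per library and colours for the 3 siRNA groups. HDAC3 lies above the other 8 in all 9 libraries, and HDAC9 and HDAC10 lie lowest.

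After the PHF12 siRNA, 3 of the 9 genes rose and none fell by the edgeR quasi-likelihood test at an adjusted p under 0.05. The genes that rose were HDAC5 and HDAC7 of class IIa and HDAC6 of class IIb, by 1.17-fold to 1.34-fold. The other 6 did not pass. Over all 18088 genes tested, 31.9% passed (14.8% rose and 17.1% fell), beside 33.3% of the 9 HDAC genes. With a stricter filter (minimum count 40), 6003 of 14547 genes passed, a higher share, so the background depends on the filter. The median log2 fold change of the 9 was 0.22, against -0.004 over all genes. With no adjustment the edgeR test would call 1 fall at the same threshold, that of HDAC4, whose adjusted p was 0.0605. DESeq2 called 0 falls as well, and limma on log2(TPM + 1) called 1, HDAC4.

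After the SUDS3 siRNA, 3 genes rose and 2 fell. HDAC5, HDAC8 and HDAC11 rose by 1.16-fold to 1.69-fold, and HDAC4 and HDAC9 fell to 63.8% and 52% of their control level. HDAC3, HDAC6, HDAC7 and HDAC10 did not pass. Of all genes tested 38.7% passed (19.6% rose and 19.2% fell), beside 55.6% of these 9. Under the stricter filter (minimum count 40) 7160 of 14547 genes passed, again a higher share, and the number of HDAC calls was the same. The median log2 fold change of the 9 was 0.05, against -0.018 over all genes. Both comparisons use the same 3 control libraries, so likeness between them is not independent.

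Set directly against the PHF12 knockdown, the SUDS3 knockdown had 4 HDAC genes lower (HDAC4, HDAC6, HDAC7 and HDAC9) and 1 higher (HDAC11). Of all genes, 43.9% passed this contrast (22.7% higher and 21.1% lower), beside 55.6% of the 9. Under the stricter filter (minimum count 40) 7977 of 14547 genes passed, a share close to that of the 9. The median log2 fold change of the 9 was -0.17, against -0.009 over all genes. Every HDAC gene that passed in any of the 3 comparisons had non-overlapping libraries in the 2 groups compared, and every one that did not pass had overlapping ones. The share of all genes with non-overlapping libraries was not counted, so this only describes the 9 genes and adds no separate support. Related genes did not all follow it: STAG2 passed with overlap in the PHF12 knockdown, and SMS did not pass in the SUDS3 knockdown though separate. With upper-quartile scaling the share of all calls that rose went from 46.4% to 56.9% in the PHF12 knockdown and from 51.8% to 41.2% between the knockdowns, and the HDAC calls were the same in number.

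**Figure D2:**
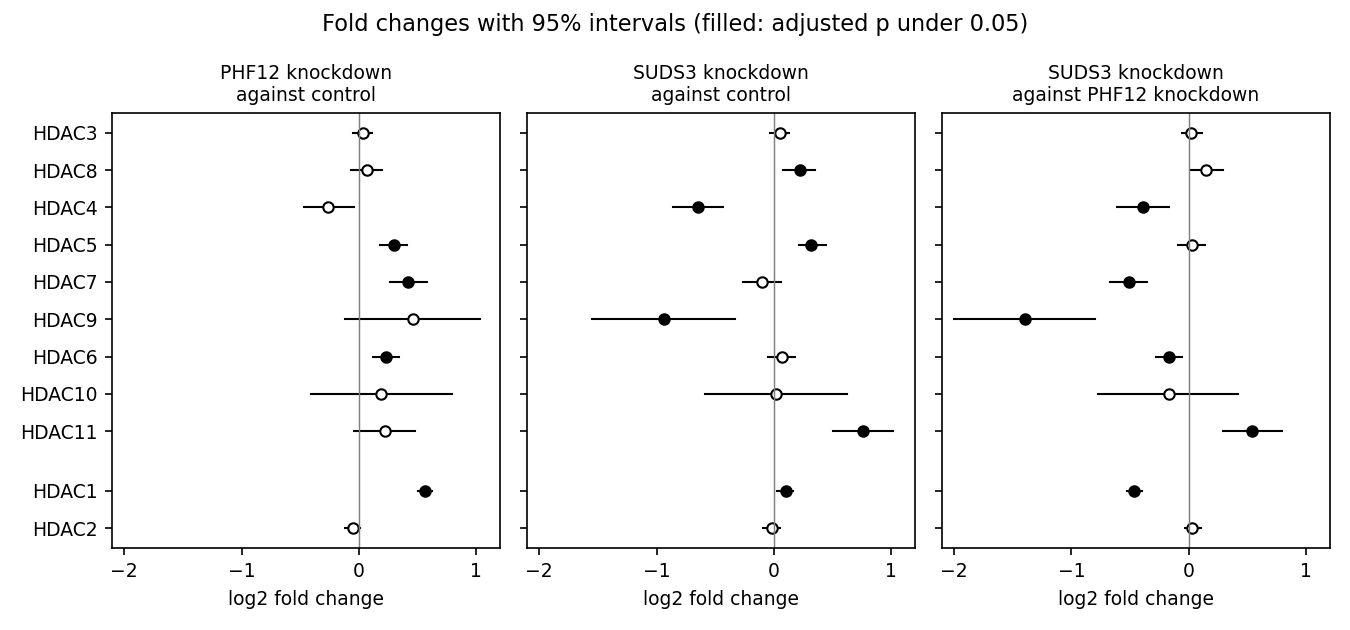
Log2 fold changes (x axis) with 95% intervals for the 9 genes and, set apart below, HDAC1 and HDAC2, in the 3 comparisons; filled points passed at an edgeR adjusted p under 0.05. HDAC5, HDAC6 and HDAC7 are filled to the right in the PHF12 panel, and HDAC4 and HDAC9 are filled to the left in the SUDS3 panel with HDAC11 farthest right.

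Among the class I genes, HDAC3 (ENSG00000171720, GRCh38 chromosome 5, 141620876 to 141636870, minus strand) did not pass in any comparison. It had 115, 118 and 109 CPM in the control libraries, 115, 115 and 118 in the PHF12 knockdown and 117, 119 and 118 in the SUDS3 knockdown. All 3 groups overlapped. The log2 fold change was 0.03 (95% interval -0.05 to 0.11, edgeR adjusted p = 0.674) in the PHF12 knockdown and 0.05 (-0.03 to 0.13, adjusted p = 0.342) in the SUDS3 knockdown.

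HDAC8 (ENSG00000147099, GRCh38 chromosome X, 72329516 to 72573199, minus strand) rose in the SUDS3 knockdown. Its control libraries had 32.9, 35.7 and 36.7 CPM, the PHF12 knockdown 38.9, 36.6 and 34.6, and the SUDS3 knockdown 37.9, 42.7 and 42. The SUDS3 libraries lay above every control, but the lowest of them lay below the highest PHF12 library. The log2 fold change was 0.22 (SE 0.07, edgeR adjusted p = 0.00813) for SUDS3 against control and 0.07 (-0.07 to 0.2, adjusted p = 0.523) for PHF12 against control. The direct difference of 0.15 between the knockdowns missed the threshold (adjusted p = 0.0584). The rise over control was lost without control replicate 1 (0.17, adjusted p = 0.0643; 0.00385 to 0.0643 over all alternatives). Without PHF12 knockdown replicate 1 or SUDS3 knockdown replicate 1 the direct difference passed (0.2, adjusted p = 0.0298 and 0.0266; 0.0266 to 0.314 over all alternatives).

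Of the 6 NCoR and SMRT subunits that surround HDAC3, 3 fell in the PHF12 knockdown and none rose (median log2 fold change -0.23). NCOR1, the scaffold that activates HDAC3, went from 152 ± 2.5 to 104 ± 2.98 CPM (-0.55, adjusted p = 3.23e-14), and TBL1X, which links the complex to chromatin, from 66.7 ± 2.24 to 45.7 ± 2.52 (-0.55, adjusted p = 5.74e-10). In the SUDS3 knockdown 3 subunits rose and 1 fell (median 0.09). TBL1X rose to 90.4 ± 7.15 CPM (0.44, adjusted p = 3.91e-08), and its paralog TBL1XR1 fell from 84.1 ± 4.07 to 41.3 ± 1.09 (-1.03, adjusted p = 3.38e-16). TBL1XR1 had fallen in the PHF12 knockdown too, to 59.7 ± 6.21 CPM (-0.49, edgeR adjusted p = 1.54e-08). HDAC3 did not pass in either knockdown.

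Of 12 cohesin genes, which hold the HDAC8 substrate SMC3, 5 rose and 1 fell in the PHF12 knockdown (median 0.07), and 4 rose and 4 fell in the SUDS3 knockdown (median 0.02). SMC3 rose in the PHF12 knockdown (0.20, adjusted p = 7.01e-05), as did the release factor WAPL (0.19, adjusted p = 0.000106). RAD21, the ring's kleisin subunit, fell in the SUDS3 knockdown from 310 ± 15.1 to 160 ± 10.5 CPM (-0.95, adjusted p = 1.49e-20), and STAG2 fell by 0.20 (adjusted p = 1.51e-05). SMC3 differed from control by 0.05 there (adjusted p = 0.391).

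The 4 class IIa genes did not move together. HDAC4 (ENSG00000068024, GRCh38 chromosome 2, 239048168 to 239401654, minus strand), a repressor of MEF2 targets in muscle and bone, had 15.2, 12.6 and 14.8 CPM in the control libraries. It had 12.6, 11.2 and 11.8 in the PHF12 knockdown and 9.26, 9.18 and 8.73 in the SUDS3 knockdown. The SUDS3 libraries were the lowest of the 9, and the PHF12 libraries touched the range of the controls. HDAC4 fell in the SUDS3 knockdown by 0.65 on the log2 scale (SE 0.11, edgeR adjusted p = 6.82e-06) and was lower there than in the PHF12 knockdown (-0.39, SE 0.11, adjusted p = 0.00285). Against control the PHF12 value of -0.26 (95% interval -0.47 to -0.04) had an adjusted p of 0.0605, and it passed without control replicate 2 (-0.34, adjusted p = 0.0272; 0.0272 to 0.225 over all alternatives).

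HDAC5 (ENSG00000108840, GRCh38 chromosome 17, 44076746 to 44123702, minus strand), a signal-responsive repressor in heart and brain, rose in both knockdowns. It had 46.9, 43.6 and 43.2 CPM in controls, 56.2, 55.3 and 52.6 in the PHF12 knockdown and 57.4, 56.5 and 53.2 in the SUDS3 knockdown. Every knockdown library lay above every control library, and the knockdowns overlapped each other. The log2 fold changes were 0.30 (SE 0.06, edgeR adjusted p = 6.13e-05) and 0.32 (SE 0.06, adjusted p = 1.45e-05), measured against the same controls. The direct difference was 0.03 (95% interval -0.09 to 0.14, adjusted p = 0.753).

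HDAC7 (ENSG00000061273, GRCh38 chromosome 12, 47782722 to 47833132, minus strand), known from thymocytes and vessel walls, rose in the PHF12 knockdown. It had 24.5, 22.4 and 25.7 CPM in controls, 33.1, 30 and 33.7 in the PHF12 knockdown and 21.5, 24.7 and 21.6 in the SUDS3 knockdown. The 3 PHF12 libraries stood above the other 6, which overlapped. The log2 fold change was 0.42 (SE 0.08, edgeR adjusted p = 4.92e-05) for PHF12 and -0.10 (95% interval -0.26 to 0.06, adjusted p = 0.376) for SUDS3. Between the knockdowns the difference was -0.51 (SE 0.08, adjusted p = 9e-07).

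HDAC9 (ENSG00000048052, GRCh38 chromosome 7, 18086949 to 19002416, plus strand), the class IIa member known from muscle and regulatory T cells, was near the low end of what these libraries can count. Its counts were 52, 112 and 60 in controls, 112, 136 and 92 in the PHF12 knockdown and 32, 52 and 36 in the SUDS3 knockdown, which in steps of 4 is 8 to 34 steps a library. As CPM these were 1.19, 2.42 and 1.58, then 2.33, 2.69 and 2.13, then 0.734, 1.08 and 0.883. The SUDS3 libraries were the 3 lowest, and the highest control lay among the PHF12 libraries. HDAC9 fell in the SUDS3 knockdown by 0.94 (SE 0.30, edgeR adjusted p = 0.0117), with a 95% interval from -1.55 to -0.33, and was 1.40 lower than in the PHF12 knockdown (log2 -1.40, SE 0.30, adjusted p = 0.000159). The fall from control was lost without control replicate 2 (-0.61, adjusted p = 0.16) and without SUDS3 knockdown replicate 1 (-0.82, adjusted p = 0.0545), with 0.00364 to 0.16 over all alternatives. The PHF12 value of 0.46 (-0.12 to 1.03, adjusted p = 0.242) did not pass.

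**Figure D3:**
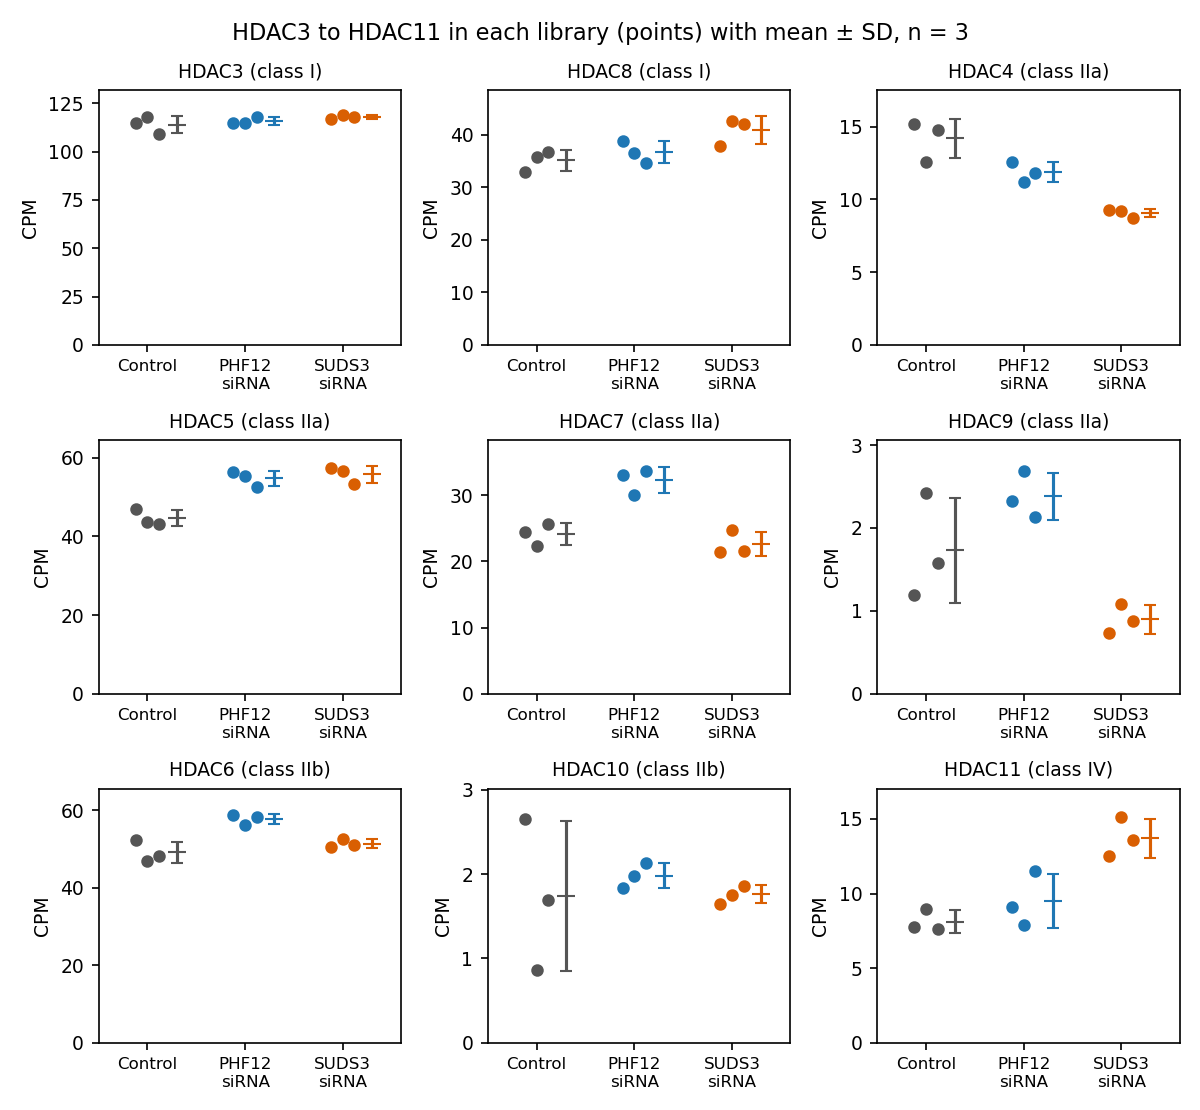
CPM (y axis, from 0) of each of the 9 genes in every library, with 1 panel per gene, points for libraries and a bar for mean ± SD (n = 3). HDAC4, HDAC9 and HDAC11 show the SUDS3 libraries apart from the rest, HDAC6 and HDAC7 show the PHF12 libraries above, HDAC5 shows both knockdowns above the controls, and the HDAC3 groups overlap.

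The partners of the class IIa enzymes moved in both directions. Of the 4 MEF2 factors they repress, 1 fell in the PHF12 knockdown, which was MEF2C (from 18.1 ± 0.322 to 13.6 ± 1.11 CPM; log2 -0.40, adjusted p = 0.000609). In the SUDS3 knockdown MEF2A fell from 79.8 ± 3.59 to 54.4 ± 2.09 CPM (-0.55, adjusted p = 5.74e-11), and MEF2D rose from 32.1 ± 1.53 to 40 ± 3.96 (0.32, adjusted p = 0.000361). MEF2B also passed there, on 68 counts over all 9 libraries, and is given no fold. The list's median was 0.03 and 0.07 in the PHF12 and SUDS3 knockdowns.

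Of the 7 14-3-3 genes, whose proteins hold phosphorylated class IIa enzymes in the cytoplasm, 4 fell and none rose in the PHF12 knockdown (median -0.10). The largest fall was that of YWHAH, from 206 ± 3.59 to 96.4 ± 4.07 CPM (-1.09, adjusted p = 8.16e-23), and YWHAG fell by 0.43 (adjusted p = 7.27e-13). In the SUDS3 knockdown 3 fell and 1 rose (median -0.07), with YWHAQ at -0.50 (adjusted p = 1.13e-15) and YWHAZ at -0.28 (adjusted p = 1.22e-09). YWHAH was at -0.01 there (adjusted p = 0.854), and the direct difference between the knockdowns was 1.08 (adjusted p = 5.54e-23).

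Of 12 kinases that phosphorylate class IIa enzymes, 4 rose and 3 fell in the PHF12 knockdown (median 0.09), and 6 rose and 4 fell in the SUDS3 knockdown (median 0.23). The calmodulin-dependent kinase CAMK2D fell in the PHF12 knockdown from 36.9 ± 2.3 to 21.4 ± 1.38 CPM (-0.78, adjusted p = 6.3e-11), and CAMK2G fell by 0.59 (adjusted p = 2.7e-10). Both were higher than control in the SUDS3 knockdown, by 0.27 (adjusted p = 0.00256) and 0.32 (adjusted p = 2.08e-05). There the protein kinase D gene PRKD3 fell by 0.40 (adjusted p = 2.23e-09), and MARK2, a kinase of microtubule-associated proteins, fell by 0.36 (adjusted p = 1.08e-06).

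In class IIb, HDAC6 (ENSG00000094631, GRCh38 chromosome X, 48801377 to 48824982, plus strand) rose in the PHF12 knockdown. It had 52.2, 47 and 48.1 CPM in controls, 58.7, 56.2 and 58.2 in the PHF12 knockdown and 50.5, 52.6 and 51.1 in the SUDS3 knockdown. The PHF12 libraries lay above all 6 others. The log2 fold change was 0.23 (SE 0.05, edgeR adjusted p = 0.00093) for PHF12 and 0.07 (95% interval -0.05 to 0.18, adjusted p = 0.378) for SUDS3, and the SUDS3 knockdown was lower than the PHF12 knockdown (-0.17, SE 0.05, adjusted p = 0.0121).

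Among 10 substrates and partners of HDAC6, 1 rose and 5 fell in the PHF12 knockdown (median -0.09), and 5 rose and 2 fell in the SUDS3 knockdown (median 0.09). CTTN, which encodes cortactin, fell in the PHF12 knockdown from 192 ± 4.45 to 139 ± 1.79 CPM (-0.47, adjusted p = 3.08e-13), and the alpha-tubulin gene TUBA1A rose (0.43, adjusted p = 5.07e-10). In the SUDS3 knockdown HSP90AA1 fell by 0.30 (adjusted p = 1.29e-12) and TUBA1B by 0.26 (adjusted p = 7.8e-09). Alpha-tubulin genes are near-identical copies, so reads could be split between them in ways the table does not show.

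HDAC10 (ENSG00000100429, GRCh38 chromosome 22, 50245183 to 50251405, minus strand) could not be measured closely. Its counts were 116, 40 and 64 in controls, 88, 100 and 92 in the PHF12 knockdown and 72, 84 and 76 in the SUDS3 knockdown. The control libraries spread more widely than either knockdown and spanned both. Its log2 fold changes, 0.19 (95% interval -0.41 to 0.79, edgeR adjusted p = 0.695) and 0.02 (-0.59 to 0.62, adjusted p = 0.972), leave changes of that size in either direction undetectable at this depth. Without control replicate 2 both turned negative (-0.14 and -0.31, neither passing). HDAC10 also shares 2763 exon bases (55.8% of its own) with MAPK12 on the same strand, a gene with 19788 counts over the 9 libraries against 732 for HDAC10. MAPK12 had 46.8 ± 2.83, 53.3 ± 1.5 and 46.9 ± 2 CPM in the 3 groups, and neither labels nor notes say how reads in the shared bases were counted.

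Of 12 genes of polyamine metabolism, whose products HDAC10 acts on, 1 rose and 7 fell in the PHF12 knockdown (median -0.23), and 6 rose and 2 fell in the SUDS3 knockdown (median 0.10). The spermine synthase gene SMS fell in the PHF12 knockdown from 146 ± 1.42 to 103 ± 4.1 CPM (-0.50, adjusted p = 1.03e-12), and the spermidine synthase gene SRM from 221 ± 3.13 to 165 ± 0.388 (-0.42, adjusted p = 1.92e-12). The antizyme inhibitors, which protect ornithine decarboxylase, rose in the SUDS3 knockdown: AZIN1 from 170 ± 5.18 to 237 ± 4.72 CPM (0.48, adjusted p = 2.32e-13) and AZIN2 from 6.86 ± 1.02 to 12.5 ± 0.817 (0.86, adjusted p = 1.17e-06). AZIN1 fell in the PHF12 knockdown (-0.41, adjusted p = 1.92e-11), and its difference between the knockdowns was 0.89 (adjusted p = 3.4e-21).

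HDAC11 (ENSG00000163517, GRCh38 chromosome 3, 13479724 to 13506424, plus strand) had the largest rise of the 9 genes in the SUDS3 knockdown. It had 7.77, 8.99 and 7.6 CPM in controls, 9.07, 7.91 and 11.5 in the PHF12 knockdown and 12.5, 15.1 and 13.6 in the SUDS3 knockdown. The SUDS3 libraries were the 3 highest, and the third PHF12 library stood above its group and above every control. HDAC11 rose 1.69-fold in the SUDS3 knockdown (log2 0.76, SE 0.13, edgeR adjusted p = 6.58e-06) and was 0.54 higher there than in the PHF12 knockdown (SE 0.12, adjusted p = 0.000418). The PHF12 value was 0.22 (95% interval -0.04 to 0.48, adjusted p = 0.208).

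The SIN3 deacetylases differed from each other in the same libraries. HDAC1 had 276, 279 and 274 CPM in controls, 420, 408 and 396 in the PHF12 knockdown and 295, 293 and 298 in the SUDS3 knockdown. It rose by 0.56 (adjusted p = 2.08e-17) and by 0.10 (adjusted p = 0.011), and its PHF12 libraries stood apart from all others. HDAC2 was at -0.05 (adjusted p = 0.256) and -0.02 (adjusted p = 0.697).

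Among the NAD-dependent deacetylases, the 7 sirtuins, 1 fell and none rose in the PHF12 knockdown (median -0.01), and 4 rose and 1 fell in the SUDS3 knockdown (median 0.23). The gene that fell in the PHF12 knockdown was SIRT5, a mitochondrial desuccinylase (-0.33, adjusted p = 0.0123). SIRT2, which like HDAC6 deacetylates tubulin, rose in the SUDS3 knockdown from 43.7 ± 3.13 to 55.7 ± 2.4 CPM (0.35, adjusted p = 9.51e-06), and the mitochondrial SIRT3 rose by 0.37 (adjusted p = 0.000952).

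Of the 10 histone acetyltransferases, the enzymes that oppose deacetylases, 2 rose and 1 fell in the PHF12 knockdown (median 0.07), and 1 rose and 5 fell in the SUDS3 knockdown (median -0.16). The coactivator CREBBP fell in the PHF12 knockdown from 97.1 ± 1.77 to 70.6 ± 4.25 CPM (-0.46, adjusted p = 6.26e-10), and KAT7 rose (0.22, adjusted p = 0.00012). KAT6A fell in the SUDS3 knockdown from 68.6 ± 1.76 to 53.1 ± 0.571 CPM (-0.37, adjusted p = 1.17e-07), and KAT5 fell from 56.3 ± 5.11 to 42.7 ± 1.78 (-0.40, adjusted p = 1.51e-06). The exons of KAT5 overlap those of RNASEH2C on the opposite strand over 1439 bases, and the strand setting of the counting was not stated in the labels or notes. Over the 9 partner and related lists, the share called ran from 14.3% (sirtuins) to 66.7% (polyamine metabolism) in the PHF12 knockdown, beside 31.9% of all genes; the MEF2 factors (25%), sirtuins and acetyltransferases (30%) lay under that background and the other 6 lists above it. In the SUDS3 knockdown it ran from 57.1% (14-3-3 genes) to 83.3% (class IIa kinases), beside 38.7% of all genes. These shares rest on 4 to 12 genes a list and were not tested. Both backgrounds depend on the filter on low counts. At a minimum count of 40, 6003 and 7160 of 14547 genes passed in the PHF12 and SUDS3 knockdowns, which are higher shares.

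**Figure D4:**
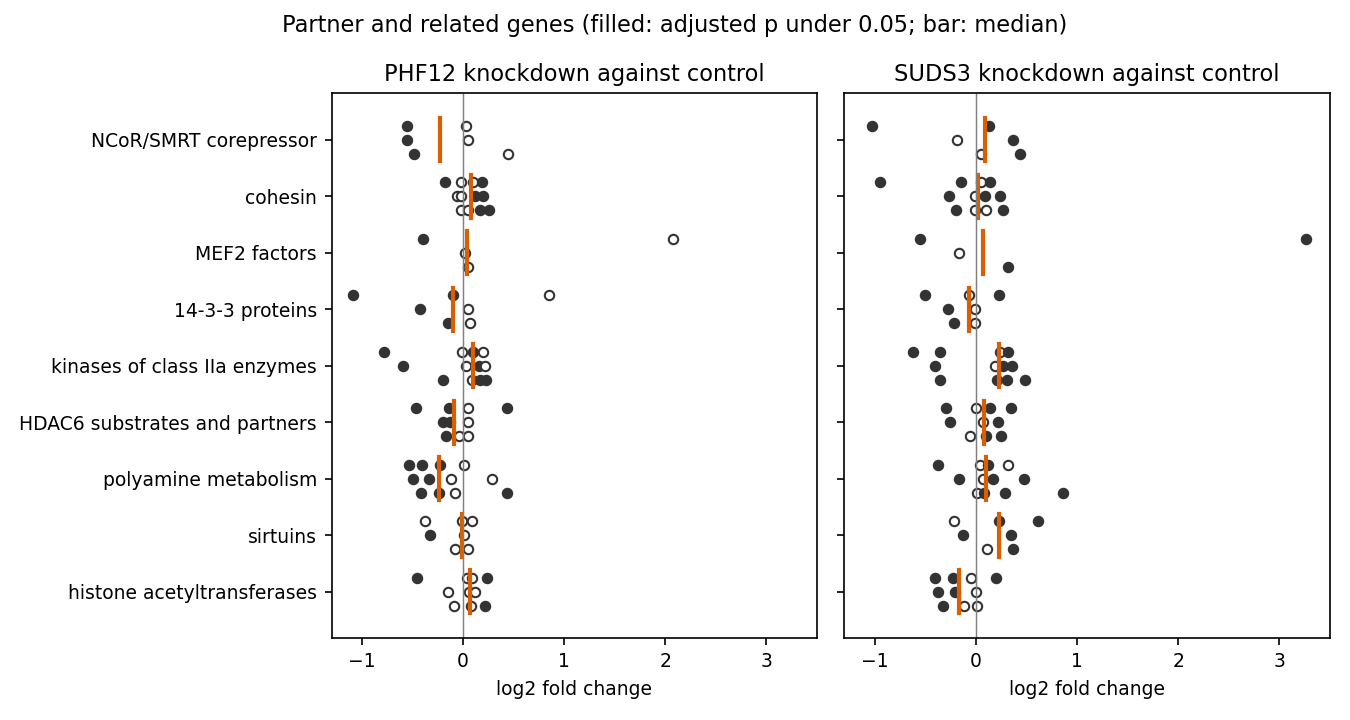
Log2 fold change (x axis) of each gene on the 9 partner and related lists in the 2 knockdowns against control, with filled points at an edgeR adjusted p under 0.05 and an orange bar at each list's median. Points lie on both sides of 0 in every list and panel, and the point beyond 2 in the row of MEF2 factors is MEF2B, which was counted near 0.

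The genes whose level followed HDAC7 most closely over the 9 libraries were NRXN3, IQCC and AMH. Their centred log2 CPM differed from that of HDAC7 by a root mean square of 0.053, 0.065 and 0.067, out of 10006 candidate genes, where HDAC7 itself deviated by 0.239 from its own mean. IQCC, for example, had 29.4 ± 1.16 CPM in controls, 38.5 ± 1.3 in the PHF12 knockdown and 26.5 ± 1.43 in the SUDS3 knockdown. For HDAC11, with a deviation of 0.354, the nearest were PELI3 (0.105), SLC38A7 (0.125) and NFKBIE (0.126). PELI3, a ubiquitin ligase of innate immune signalling, had 11.5 ± 1.09, 12.3 ± 1.29 and 18.8 ± 1.73 CPM in the 3 groups. These 9 libraries share their groups, so likeness here says only that the groups and replicates lie in a similar order.

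Promoter windows of 300 bases from RefSeq (GRCh38.p14; 250 before and 50 after a start) matched 8 of the 9 genes. HDAC4 and HDAC9 had 5 windows each and HDAC6 had 3, and only the window nearest the annotated gene start is described. The sole HDAC7 window (47819854 to 47820153) lies inside the gene, which is annotated to start at 47833132 on the minus strand. The 8 windows described held 9 (HDAC8) to 41 (HDAC9) CG pairs, against a median of 14 over 35116 windows. The E-box CACGTG, a palindrome, lay in 1 of the 8 (HDAC4) and in 7.26% of all windows. The GC box GGGCGG, counted on both strands with overlaps, lay in 6 of the 8 and in 45.0% of all windows, with 5 copies in HDAC11 and none in HDAC7 or HDAC8. Shown here are the windows of HDAC4 and HDAC11, the well-counted genes with the largest fall and the largest rise in the SUDS3 knockdown, with E-box and GC boxes in capitals.
HDAC4, chr2:239401600-239401899, minus strand: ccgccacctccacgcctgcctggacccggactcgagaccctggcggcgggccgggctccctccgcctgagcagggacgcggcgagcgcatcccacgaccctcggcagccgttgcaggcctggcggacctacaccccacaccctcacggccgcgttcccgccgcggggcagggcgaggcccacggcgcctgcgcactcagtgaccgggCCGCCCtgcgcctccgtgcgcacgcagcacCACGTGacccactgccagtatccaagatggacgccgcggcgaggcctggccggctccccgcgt
HDAC11, chr3:13480056-13480355, plus strand: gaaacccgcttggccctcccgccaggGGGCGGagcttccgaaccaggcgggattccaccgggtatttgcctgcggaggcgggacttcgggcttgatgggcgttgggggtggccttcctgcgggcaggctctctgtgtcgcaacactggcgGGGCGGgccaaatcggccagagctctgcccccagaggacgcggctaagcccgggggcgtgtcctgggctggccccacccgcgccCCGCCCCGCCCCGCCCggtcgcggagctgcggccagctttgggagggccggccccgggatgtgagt
The letters describe the windows only, and no factor's binding was measured in these libraries.

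An siRNA can lower transcripts that match its seed, the first bases of its guide strand, in their 3' UTR, and the labels give no sequence for either siRNA. Taken were the longest annotated 3' UTRs, very short ones left out, of 10885 protein-coding genes with an average log2 CPM above 2. On these, 4055 hexamers were scored by how far genes that hold them fell. HDAC9 and HDAC10 lay under that level and are not in the shares given next, though their 3' UTRs were searched. The lowest-scoring hexamer was GTACAT in the SUDS3 knockdown, held by 33.7% of genes; 36.3% of those fell, against 20.1% of the rest. In the PHF12 knockdown it was AATCAC, held by 32.3% of genes, of which 43.8% fell, against 16.5% of the rest. Both were picked from these fold changes, so the shares are descriptions. The length of the 3' UTR was regressed out only for the scoring, and the shares that fell are not adjusted for it. Of the 9 HDAC genes, GTACAT lay in the longest annotated 3' UTR of HDAC4 (1 copy), HDAC6 (1), HDAC9 (1) and HDAC8 (4). Of these, HDAC4 and HDAC9 fell, HDAC8 rose and HDAC6 did not pass. AATCAC lay in those of HDAC8 (2 copies) and HDAC9 (6), neither of which passed in the PHF12 knockdown. The HDAC3, HDAC5, HDAC7, HDAC10 and HDAC11 3' UTRs searched held neither hexamer, and of these HDAC3 and HDAC10 passed in neither knockdown. Shown are the sites in HDAC4 and HDAC9, the 2 genes that fell, with the hexamer in capitals (GRCh38).
HDAC4-201, chr2:239051417-239051446, minus strand: gaattcttgcttGTACATttttttttacct
HDAC9-204, chr7:19001160-19001189, plus strand: ggaaagaaaattGTACATacatttccttgt
HDAC4-201 is the principal transcript of HDAC4. The transcripts searched for HDAC9 (HDAC9-204), HDAC6 (HDAC6-213) and HDAC8 (HDAC8-234) are not the principal ones. Nor are those searched for HDAC7 (HDAC7-202), HDAC10 (HDAC10-222) and HDAC11 (HDAC11-214). The principal transcripts of HDAC6 and HDAC8 have 4196 and 2110 bases, of which 3648 and 1134 are coding. They cannot hold the searched 3' UTRs of 1271 and 4554 bases, and were not searched for these sites. Whether these sites took part in the falls was not tested.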

How the data were processed

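RNA-seq of 9 HEK293T libraries (3 per siRNA) was analysed from 2 tables. Per the labels, poly-A RNA was made into stranded TruSeq libraries, and per the submitters' processing notes reads were handled with Trimmomatic 0.36, HTSeq and HISAT2 2.1.0 on build GRCh38. The authors deposited whole-number counts for 58735 genes, all found in GENCODE 29. The authors also deposited TPM for 58734 genes, scaled to 1000000 a library. Dividing count by TPM gave 1 relative length per gene (SD of its log2 over libraries at most 0.00014), which had Pearson r 0.006 with union exon length across 9444 genes. TPM was therefore compared within a gene only, and levels between genes are CPM per kb of the APPRIS principal transcript (for HDAC8, the CCDS transcript with the longest coding sequence).

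The count model was edgeR 4.0.16 (R 4.3.3), using filterByExpr at a minimum count of 10, TMM scaling, robust quasi-likelihood F-tests and 3 group means, with Benjamini-Hochberg adjustment over 18088 genes and a threshold of 0.05. CPM are TMM-scaled, as mean ± SD of 3 libraries. The labels do not say that replicates were separate cultures, so p-values measure the spread between these libraries, which may be technical. No pair of libraries in a group was identical (chi-square per degree of freedom 1.35 to 2.1). The fit was also run on simulated counts, whose outcome is not given here and adds no support to the calls. The 20 alternatives include DESeq2 1.42.0 and limma 3.58.1 on log2(TPM + 1).

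The HDAC genes and all lists were chosen with earlier results of these data known. Named genes are the 9 HDAC genes, HDAC1, HDAC2, PHF12, SUDS3, the 2 genes of smallest p among those called in each list and knockdown, and the 3 genes of nearest pattern to the HDAC gene of smallest p in each knockdown; MEF2B and MAPK12 fall outside this rule and were named after their values were seen. No protein sequence was used here. Hexamers were scored on fold changes with 3' UTR length regressed out.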

Additional observations from a re-analysis of the deposited data

How the results depend on the processing

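Across 20 alternatives (3 other scalings or tests of the counts, 2 other filters, counts divided by 4, only the 2 groups compared, a replicate block, each of the 9 libraries left out, and 3 limma fits of TPM), 521 of 540 log2 fold changes of the 9 HDAC genes kept their direction and their side of the threshold. The rises of HDAC5, HDAC6 and HDAC7 in the PHF12 knockdown, the changes of HDAC4, HDAC5 and HDAC11 in the SUDS3 knockdown and the 5 differences between the knockdowns passed in 20 of 20. The fall of HDAC9 passed in 17 and the rise of HDAC8 in 18. The number of HDAC genes that fell in the PHF12 knockdown became 1 (HDAC4) with counts divided by 4 (adjusted p 0.05 after rounding) and with limma on log2(TPM + 1) and log2(TPM + 0.1) (adjusted p = 0.0482 and 0.049), and was 0 to 1 with a library left out. The number that fell in the SUDS3 knockdown became 1 with limma on unfiltered log2(TPM + 1), where HDAC9 was at -0.45 (adjusted p = 0.0841) and HDAC8 at 0.2 (adjusted p = 0.0643), and was 1 to 2 with a library left out. The number higher in the SUDS3 than in the PHF12 knockdown was 1 to 2 with a library left out. Between the knockdowns HDAC9 was at -0.76 on the log2(TPM + 1) scale (adjusted p = 0.00326), which understates changes of low genes, against -1.40. The cause of these moves was not tested.

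Among the fold changes of HDAC1 to HDAC11, signs turned in 11 cases, none of them called. With upper-quartile scaling these were HDAC10 in the SUDS3 knockdown (-0.01) and HDAC2, HDAC3 and HDAC5 between the knockdowns (-0.03, -0.04 and -0.04). With a library left out, HDAC10 ranged from -0.14 to 0.64 in the PHF12 knockdown and from -0.31 to 0.47 in the SUDS3 knockdown (-0.03 without SUDS3 knockdown replicate 3). Between the knockdowns HDAC5 ranged from 0 to 0.05 and HDAC2 from 0 to 0.07, and HDAC2 in the SUDS3 knockdown ranged from -0.05 to 0.01. For the other named genes, alternatives were run for the called values only: 1913 of 1980 still passed, 67 no longer did, and none of these 1980 changed sign.

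Replicate numbers did not pair the samples: deviations of same-numbered libraries correlated at -0.016 to 0.03 (9 pairs) and those of other libraries at -0.032 to 0.018 (18 pairs). The replicate block gave 5848 called genes in the PHF12 knockdown, 7073 in the SUDS3 knockdown and 7981 between them, against 5776, 7004 and 7937, and changed no HDAC call. Ranks of CPM per kb with union exon and coding lengths were added after seeing the data. With 3 libraries a group and few steps of counting, the 95% intervals of HDAC9 and HDAC10 were wider than the changes called in HDAC5, HDAC6, HDAC7 and HDAC8, so changes of that size were not detectable in them.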
